A study of Homo sapiens with 27 samples.

Results

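Insulin and the insulin-like growth factors (IGFs) act on cells through 2 related tyrosine kinase receptors, and 8 genes of this system were followed here across 4 T47D lines: the receptors IGF1R and INSR, the adaptors IRS1 and IRS2, the kinase subunit PIK3CA, and the secreted binding proteins IGFBP2, IGFBP4 and IGFBP5. They were chosen by name from the gene count file, where all 8 had a row among 26485 genes, and all 8 passed the filter on low counts that left 14789 genes for testing. T47D is an established line of luminal, estrogen receptor-positive breast cancer. Each line was a lentiviral pool selected with puromycin: the control carried the empty vector, and the other lines expressed a 3xTy1-tagged truncation mutant of the transcription factor GATA3, named Splice del, C321fs or A333fs, on top of the wild-type GATA3 of T47D. RNA was sequenced from 3 samples per line, 12 libraries in all, from cells at low passage. The Splice del protein lacks the C-terminal zinc finger, which contacts DNA, and the C321fs and A333fs proteins keep a part of it. Because every mutant was 1 pool, the mutant and the pool that carries it cannot be told apart, and the labels do not say whether the 3 samples came from separate cultures, so that p-values measure the spread between these samples only.

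When IGF1 or IGF2 binds IGF1R, or insulin binds INSR, the receptor phosphorylates IRS1 and IRS2, which recruit the PI3 kinase whose catalytic subunit p110α is the product of PIK3CA. The lipid it makes activates AKT, and through AKT the mTOR kinase. The IGF binding proteins hold IGFs outside the cell and in doing so limit or prolong their action. In luminal breast cancer cells IGF1R and IRS1 are known as estrogen-responsive genes, and T47D carries an activating mutation in PIK3CA, which read counts per gene do not show.

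The libraries held 27872208 to 36788024 counted fragments. The scaling factors of the trimmed mean of M-values (TMM) were 0.884 to 0.943 in the control libraries and 1.01 to 1.05 in the mutant libraries. Values are given in CPM, the usual unit of a gene's counts relative to the total of its library, here with the total scaled by these factors. GATA3 itself (chromosome 10) averaged 1281.3 CPM in the control libraries and 1001.5, 1142.4 and 1016.5 CPM in those of Splice del, C321fs and A333fs, so no mutant library showed a rise in the gene's total, and reads from the transgene and from the native gene were counted together. C321fs replicate 1 stood apart from the other 2 libraries of its line, by 16.2 and 28.4 units of chi-square per gene against 5.72 between those other libraries; values without it are given where it moves a result. The 8 luminal markers were all detected in every line. Their summed level was 17138.4 to 20415 CPM in control and 10983.2 to 13931.3 CPM in the mutant libraries. Most of that sum came from the keratins KRT8 (3566.2 to 8479 CPM over all libraries), KRT19 (3471.6 to 6222.8) and KRT18 (1445.5 to 2938.5). The other luminal markers lay between 195.4 (EPCAM) and 1339.7 CPM (GATA3). The 4 basal markers summed to 0.296 to 1.52 CPM, and the 3 endothelial markers to at most 0.0957 CPM. Of the fibroblast markers COL1A1 read 28 to 59.8 CPM and COL3A1 1.36 to 5.38 CPM, with COL1A2 and PDGFRB at or near 0, and their sum was 53.2 to 64.9 CPM in control, 44.8 to 50.7 in Splice del, 40.7 to 49.7 in C321fs and 29.6 to 33.4 in A333fs. Of the immune markers PTPRC was at 0 throughout and CD68 read 2.71 to 4.78 CPM. The part of the lower luminal and fibroblast sums in the values of the 8 genes was not tested.

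Of the 8 genes, 7 differed among the 4 lines in an edgeR quasi-likelihood F-test (adjusted p below 0.01), a share to be read against 56.2% of all tested genes. The binding proteins IGFBP5 and IGFBP4 fell in all 3 mutant lines, each most in a different line, IRS1 and PIK3CA rose in all 3 by 1.29- to 1.41-fold, IRS2 and IGF1R fell in C321fs and A333fs, and INSR rose in Splice del. The PIK3CA rise and the IRS2 and IGF1R falls no longer passed once a trend over GC content and gene length was removed, as described further on. IGFBP2 did not pass in any comparison. Here "rose" and "fell" mean an adjusted p below 0.01, and "called" adds a fold change over 1.5. In bulk RNA, fewer cells that use a gene and less RNA per cell cannot be told apart.

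**Figure D1:**
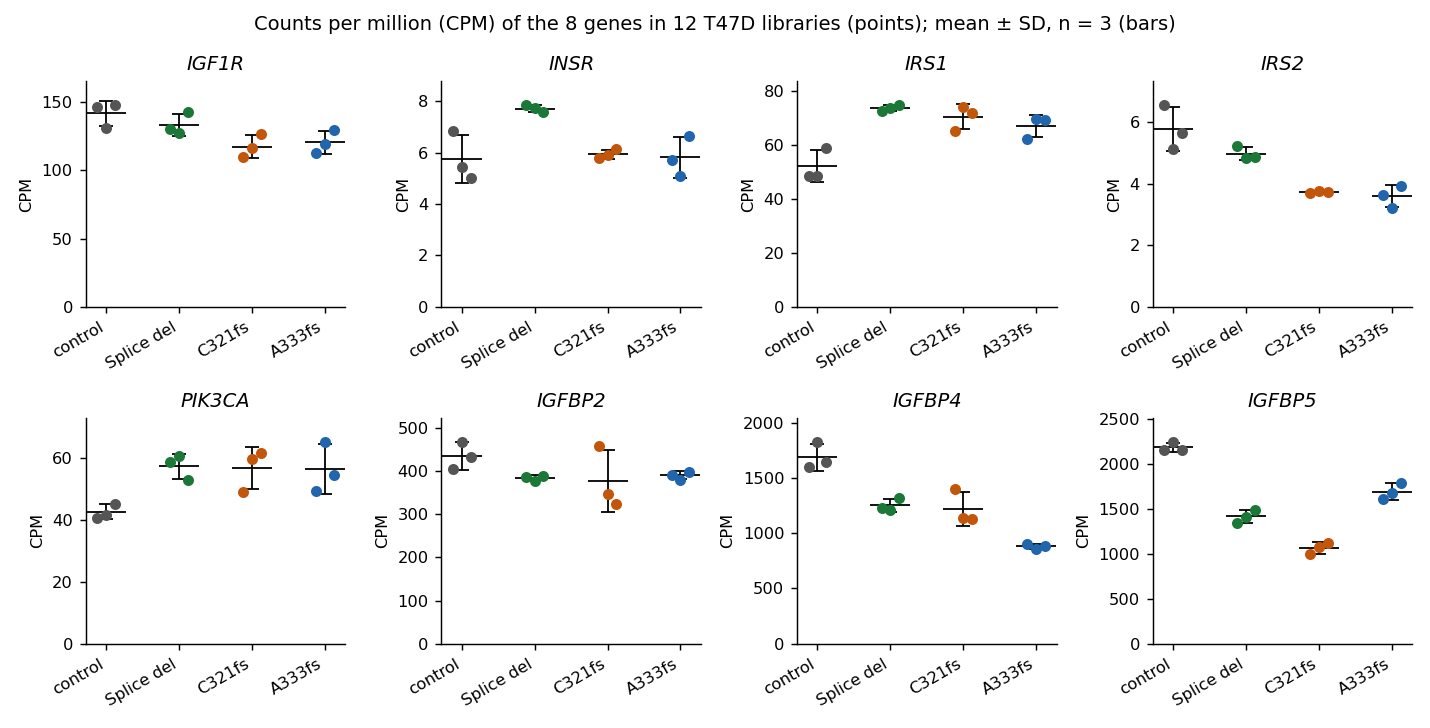
Level of each gene in CPM (vertical axes, each starting at 0) in the 12 libraries (points) of the 4 lines, with the mean and SD of 3 libraries (bars). The IGFBP5 points of C321fs (993.8 to 1118.4 CPM) lie lowest and those of control (2157.7 to 2245.1 CPM) highest, while the IGFBP2 points of C321fs spread from 324.3 to 459 CPM and overlap those of control.

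IGFBP5 showed the widest separation of the lines. It lies on chromosome 2 of hg38 at chr2:216672105-216695549, minus strand, with 6239 bases of exon, and its protein binds IGFs and the extracellular matrix. The control libraries read 2157.7, 2245.1 and 2158.3 CPM, and those of Splice del 1347.4, 1407.9 and 1490.7 CPM. The C321fs libraries read 993.8, 1077.8 and 1118.4 CPM, and those of A333fs 1615, 1671.2 and 1792.1 CPM. The 4 lines did not overlap: every C321fs library was below every Splice del library, these below every A333fs library, and these below control. Against control, C321fs was 2.06-fold lower (log2 −1.04 ± 0.06 (SE), adjusted p = 1.8e-08) and Splice del 1.55-fold lower (log2 −0.63 ± 0.06, adjusted p = 1e-06), both called. A333fs was 1.29-fold lower (log2 −0.37 ± 0.06, adjusted p = 9e-05), under the fold limit. The mutant lines also differed from each other: A333fs was 1.59-fold above C321fs (adjusted p = 7.1e-07, called), Splice del was 1.33-fold above C321fs (adjusted p = 0.00023) and A333fs was 1.2-fold above Splice del (adjusted p = 0.0063). Without C321fs replicate 1 the C321fs value against control was −1 (log2) and that of A333fs against C321fs 0.62, both still called. The Splice del value lay near the fold limit and was −0.54 with upper-quartile scaling and −0.44 with library totals alone, each still with an adjusted p of 1e-05 or lower.

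IGFBP4, on chromosome 17 at chr17:40443424-40457730, plus strand, with 2236 bases of exon, encodes a binding protein known mainly for blocking IGF action until a protease cuts it. The control libraries read 1597.2, 1828.6 and 1644.3 CPM. The Splice del libraries read 1230.8, 1212 and 1320.6 CPM, and those of C321fs 1402.8, 1141.1 and 1127.3 CPM. The A333fs libraries read 905.8, 854.6 and 884.3 CPM. Every mutant library was below every control library, the A333fs libraries were below all others, and Splice del and C321fs overlapped. IGFBP4 was 1.92-fold lower in A333fs than in control (log2 −0.94 ± 0.08, adjusted p = 1.8e-07, called), 1.35-fold lower in Splice del (adjusted p = 0.00027) and 1.38-fold lower in C321fs (adjusted p = 0.00019). A333fs was also 1.42-fold below Splice del (adjusted p = 0.00031) and 1.39-fold below C321fs (adjusted p = 0.00033). The difference between Splice del and C321fs was 0.04 on the log2 scale, with a 95% interval of −0.13 to 0.2. C321fs replicate 1 was the highest mutant library, and without it the fall in C321fs was −0.58 (log2).

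The windows upstream of these genes are shown because both genes moved in all 3 lines of a GATA factor study. They are the 250 bases before the RefSeq start (GRCh38.p14), chr2:216695550-216695799 on the minus strand for IGFBP5 and chr17:40443200-40443449 on the plus strand for IGFBP4, 5′ to 3′. The count file starts IGFBP4 earlier, at 40443424, so the end of its window lies inside the gene as counted. Capitals mark a TATA-like stretch read on the gene's strand, TATTTAA in the IGFBP5 window and TATAAA in the window of IGFBP4.
IGFBP5: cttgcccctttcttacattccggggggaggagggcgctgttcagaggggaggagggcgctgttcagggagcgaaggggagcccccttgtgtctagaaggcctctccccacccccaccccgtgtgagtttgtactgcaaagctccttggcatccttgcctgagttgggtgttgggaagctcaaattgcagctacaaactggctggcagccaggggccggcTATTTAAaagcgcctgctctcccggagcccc
IGFBP4: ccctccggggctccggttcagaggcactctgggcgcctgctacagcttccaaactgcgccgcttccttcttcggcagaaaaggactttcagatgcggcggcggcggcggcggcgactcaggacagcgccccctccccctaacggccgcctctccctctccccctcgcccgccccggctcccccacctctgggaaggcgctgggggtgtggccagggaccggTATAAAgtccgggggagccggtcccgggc
TATAAA stood in 6.8% of the 35116 windows of this length in the table and TATTTAA in 2.26% of them, and no other of the 8 genes had either. The letters GATA, the core of the GATA factor motif, were in neither window on either strand, against 45.6% of all windows. Of the 10 windows of the 8 genes, only 1 of the 3 windows of IGFBP2 held GATA. The longer forms of the motif, of which each match is also a match of GATA, were searched on both strands and were in none of the 10. Of all windows, AGATAA stood in 9.17% of the total, AGATAG was present in 5.66% of them, TGATAA was found in 6.66% of them, and TGATAG came up in 5.05% of them. Shorter forms without the last A are more common. AGAT, searched on both strands, was in 64.2% of all windows and in 6 of the 10, those of IGF1R, INSR, IGFBP4 and PIK3CA and 2 of IGFBP2. TGAT, searched likewise, was in 60.3% of all windows and in 1 of the 10, a window of IGFBP2, and the IGFBP5 window held neither. The GC content of the 10 windows ran from 56.4% to 81.2%, with 3 of them below the median of 58% over all windows. The shares of motifs over all windows were not matched for GC content. Letters in a short window say nothing of sites elsewhere in or around the genes.

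IGFBP2 is the neighbour of IGFBP5, at chr2:216633404-216664435 on the plus strand with 1429 bases of exon, so that 7669 bases lie between the ends of the 2 genes. Its product is a binding protein with a cell-attachment motif, described as limiting IGF action and also as promoting growth of tumour cells. The control libraries read 404.9, 467.9 and 432.4 CPM, and those of Splice del 385.7, 378.2 and 390 CPM. The C321fs libraries read 459, 348.2 and 324.3 CPM, and those of A333fs 392, 380.1 and 398.3 CPM. The Splice del and A333fs libraries lay just below control, and C321fs replicate 1 lay within it. The log2 differences from control were −0.18 (95% interval −0.38 to 0.02), −0.21 (−0.41 to −0.01) and −0.16 (−0.36 to 0.04) in the order Splice del, C321fs and A333fs, with adjusted p of 0.12, 0.079 and 0.16. The F-test over the 4 lines gave an adjusted p of 0.2. Without C321fs replicate 1 the C321fs value was −0.37 with an adjusted p of 7.7e-05.

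Expressed per kilobase of exon, which allows levels to be compared between genes, the 3 binding proteins were far above the other 5 genes in every line. IGFBP4 read 755.8 ± 54.7 (SD, n = 3) CPM per kilobase in control, followed by IGFBP5 at 350.5 ± 8.06 and IGFBP2 at 304.5 ± 22.1. In Splice del and C321fs the order of the last pair was reversed, with IGFBP2 at 269.1 and 264 and IGFBP5 at 226.9 and 170.4 CPM per kilobase, and the libraries of the 2 genes did not overlap. In A333fs they overlapped, at 273 and 271.3 CPM per kilobase. The sum of the 3 genes came to 1410.8 ± 84.1 CPM per kilobase in control and to 938.6 ± 22.7 in A333fs, 981.7 ± 109.6 in C321fs and 1057 ± 39.4 in Splice del. Within that sum, IGFBP5 held 24.9% and IGFBP4 53.5% in control, against 21.5% and 53.1% for Splice del, 17.6% and 55.7% for C321fs, and 28.9% and 42% for A333fs. A like sum in C321fs and A333fs was thus made of different shares, with IGFBP5 the smallest in C321fs and IGFBP4 reduced in A333fs. C321fs replicate 1 moved both C321fs means. Its sum was 1107.9 CPM per kilobase, against 926.8 and 910.4 in replicates 2 and 3. Its IGFBP5 share was 14.4%, against 18.6% and 19.7% in those, which lay nearer the 20.8% to 21.9% of Splice del. These shares and sums are descriptions and were not tested. Like the order of the genes, they still hold the trend over GC content and gene length described further on. With it removed, IGFBP2 was at 0.09, −0.04 and 0.31 (log2 against control) in Splice del, C321fs and A333fs. IGFBP4 was then at −0.24, −0.31 and −0.57, and IGFBP5 at −0.62, −0.96 and −0.32.

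**Figure D2:**
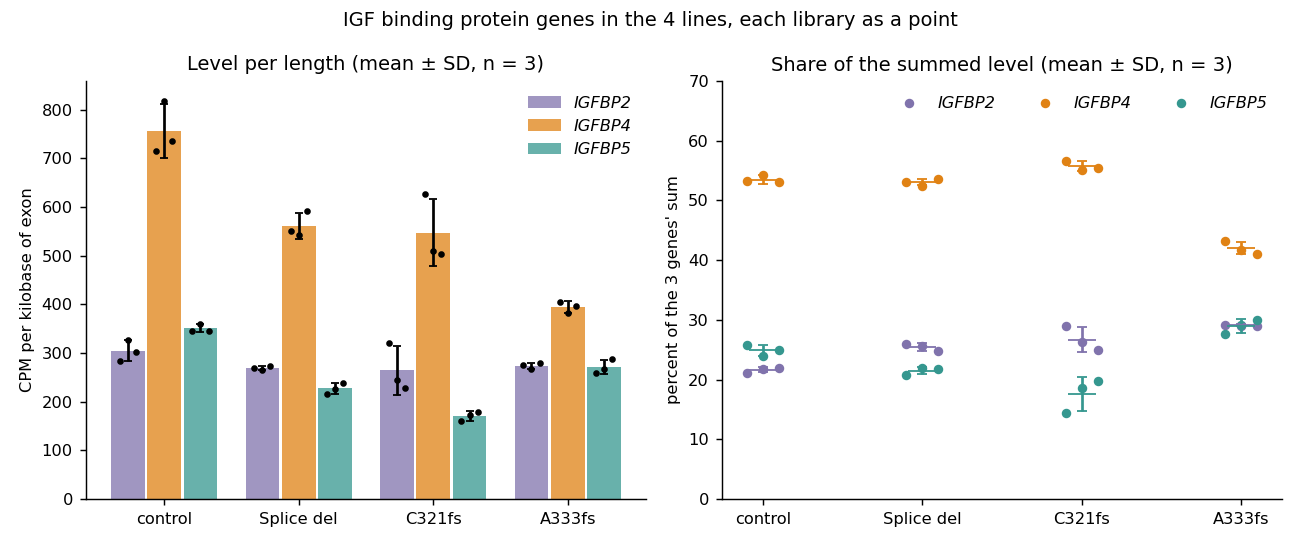
Left, level of IGFBP2, IGFBP4 and IGFBP5 in CPM per kilobase of exon (bars, mean with SD, n = 3; points, libraries) in the 4 lines. Right, the share of each gene in the sum of the 3, in percent: the IGFBP4 points of A333fs (41.1% to 43.2%) lie below those of the other lines and the IGFBP5 points of C321fs (14.4% to 19.7%) below theirs.

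The adaptors differed in direction: IRS1 rose in all 3 mutant lines, while IRS2 fell in C321fs and A333fs and did not pass in Splice del. IRS1, at chr2:226731317-226798790 on the minus strand with 8736 bases of exon, is the main docking protein below IGF1R in luminal breast cells. Its control libraries read 48.6, 48.6 and 58.9 CPM. The Splice del libraries read 72.4, 73.5 and 74.6 CPM, those of C321fs 65.1, 74.1 and 71.7 CPM and those of A333fs 62.1, 69.5 and 69.3 CPM. All 9 mutant libraries were above all 3 control libraries, and the mutant lines lay close to each other. IRS1 rose 1.41-fold in Splice del (log2 0.5 ± 0.08, adjusted p = 6.4e-05), 1.35-fold in C321fs (adjusted p = 0.00031) and 1.29-fold in A333fs (adjusted p = 0.00078), in no line past 1.5-fold. Control replicate 3 was the highest control library, and without it the Splice del rise was called (log2 0.6, adjusted p = 2.3e-05). It was also called with upper-quartile scaling (log2 0.59, adjusted p = 5.5e-06). Between mutant lines the log2 differences were at most 0.13 in size, that of A333fs from Splice del with an interval of −0.3 to 0.03.

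IRS2, at chr13:109753837-109786567 on the minus strand with 6998 bases of exon, is the second adaptor and the one tied mostly to metabolism and motility in breast cells. It was counted 101 to 202 times per library. The control libraries read 6.55, 5.13 and 5.66 CPM, and those of Splice del 5.21, 4.85 and 4.88 CPM. The C321fs libraries read 3.71, 3.75 and 3.73 CPM, and those of A333fs 3.65, 3.22 and 3.93 CPM. Splice del overlapped control, and all 6 libraries of C321fs and A333fs were below both. IRS2 was 1.55-fold lower in C321fs (log2 −0.63 ± 0.11, adjusted p = 0.00035) and 1.6-fold lower in A333fs (log2 −0.68 ± 0.11, adjusted p = 0.00011), both called. In Splice del the log2 difference was −0.21, with an interval of −0.44 to 0.02 and an adjusted p of 0.11. The difference between lines passed for A333fs against Splice del (1.38-fold lower, adjusted p = 0.0081) and not for Splice del against C321fs (1.34-fold higher, adjusted p = 0.024). Without control replicate 1, the highest library, the values were −0.53 and −0.58, below the 1.5-fold limit but with adjusted p of 0.0024 and 0.00083; without A333fs replicate 2 the A333fs value was −0.57, also below it. With library totals alone they were −0.47 and −0.53, and with upper-quartile scaling −0.55 and −0.57. Per kilobase, the ratio of IRS1 to IRS2 averaged 7.29 ± 1.23 (SD, n = 3) in control, and 11.8 ± 0.628, 15.1 ± 0.945 and 15 ± 1.97 in the mutant lines (Splice del, C321fs, A333fs). These ratios still hold the trend over GC content and gene length described further on. With it removed, IRS2 was at −0.41 (log2) in C321fs and −0.31 in A333fs and did not pass.

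Of the receptors, IGF1R was much the more abundant transcript. It spans chr15:98648539-98964530 on the plus strand with 12235 bases of exon, a part of which also belongs to the opposite-strand gene IRAIN, counted 43 to 92 times per library. The control libraries read 146.4, 131.4 and 147.8 CPM, and those of Splice del 130.6, 127.4 and 142.6 CPM. The C321fs libraries read 109.7, 116.5 and 126.4 CPM, and those of A333fs 112.7, 119.4 and 129.5 CPM. Splice del overlapped control, while all 6 libraries of the other mutant lines were below it, A333fs replicate 3 by a small margin. The fall was 1.21-fold in C321fs (log2 −0.27 ± 0.07, adjusted p = 0.0048) and 1.18-fold in A333fs (log2 −0.23 ± 0.07, adjusted p = 0.0093). Without C321fs replicate 1 the C321fs value was −0.23 and its adjusted p 0.013. These small falls of IGF1R also depended on the scaling. They were −0.19 and −0.12 with upper-quartile scaling (adjusted p = 0.04 and 0.15) and −0.11 and −0.09 with library totals alone (adjusted p = 0.25 and 0.32), and RLE scaling gave A333fs an adjusted p of 0.013. In Splice del the difference was −0.09, with an interval of −0.24 to 0.06.

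INSR, the insulin receptor gene, lies at chr19:7112255-7294000 on the minus strand with 9059 bases of exon. It was counted 144 to 304 times per library. Its control libraries read 6.82, 5.42 and 5 CPM and those of Splice del 7.84, 7.74 and 7.56 CPM. The C321fs libraries read 5.78, 5.9 and 6.12 CPM, and those of A333fs 5.71, 5.07 and 6.63 CPM. Only the Splice del libraries stood clear of control. INSR rose 1.34-fold in Splice del (log2 0.43 ± 0.12, adjusted p = 0.0059). The differences from control in C321fs and A333fs were 0.05 and 0.02 (log2), with intervals of −0.21 to 0.3 and −0.24 to 0.27. Splice del was 1.3-fold above C321fs (adjusted p = 0.043) and A333fs 1.33-fold below Splice del (adjusted p = 0.018), which did not pass at 0.01. Per kilobase the ratio of IGF1R to INSR averaged 18.6 ± 3.04 (SD, n = 3) for control libraries, and 12.8 ± 0.994, 14.6 ± 0.619 and 15.5 ± 1.67 for the mutant lines in the same order.

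PIK3CA, at chr3:179148523-179234709 on the plus strand with 3709 bases of exon, showed nearly the same value in each mutant line. The control libraries read 40.7, 41.5 and 45.2 CPM. The Splice del libraries read 58.6, 60.4 and 52.7 CPM, those of C321fs 48.9, 59.7 and 61.4 CPM and those of A333fs 49.4, 65.1 and 54.4 CPM. All mutant libraries were above all control libraries, with a spread inside C321fs and A333fs wider than the distance between the mutant lines. The rise was 1.35-fold in Splice del (log2 0.43 ± 0.1, adjusted p = 0.0018), 1.33-fold in C321fs (adjusted p = 0.0028) and 1.33-fold in A333fs (adjusted p = 0.0024), in no line called. These values fell to at most 0.09 (log2), and none passed, after removal of the GC and length trend. The IGF1R falls did not pass after that removal either, and the levels per kilobase that follow still hold the trend. Per kilobase, PIK3CA (11.5 CPM per kilobase) and IGF1R (11.6) overlapped in control. In the mutant lines PIK3CA (15.2 to 15.4) was above IGF1R (9.6 to 10.9) with no overlap. IRS1 came next (5.96 in control and 7.66 to 8.41 in the mutant lines). IRS2 (0.826) and INSR (0.634) overlapped in control, and INSR was the higher of them in Splice del and C321fs and overlapped IRS2 in A333fs.

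**Figure D3:**
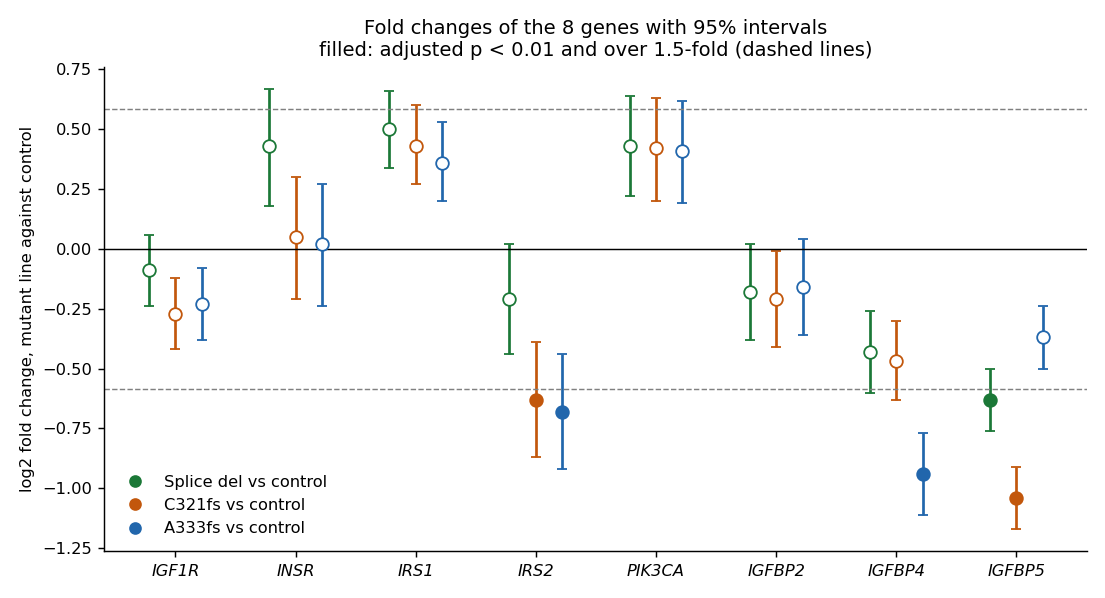
The log2 fold change of each gene against control in the 3 mutant lines, with 95% intervals from the edgeR fit (bars). Filled points passed an adjusted p of 0.01 and a fold change of 1.5 (dashed lines): IGFBP5 in Splice del (−0.63) and C321fs (−1.04), IRS2 in C321fs (−0.63) and A333fs (−0.68), and IGFBP4 in A333fs (−0.94).

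Counted over the 8 genes, Splice del against control had 3 that rose and 2 that fell at an adjusted p below 0.01 (41.1% of all tested genes passed), C321fs had 2 and 4 (36.8%), and A333fs had 2 and 4 (47.4%). Called members were 1, 2 and 2, all lower, and none was called higher. The share of all tested genes called lower was 4.53%, 2.26% and 6.81% in the same order, and 6.21%, 4.63% and 5.46% were called higher. With upper-quartile scaling, IRS1 was called higher in Splice del and IGFBP5 no longer lower. With library totals alone in place of TMM, IRS1, INSR and PIK3CA were called higher in Splice del (log2 0.68, 0.61 and 0.62) and IRS1 in C321fs (log2 0.6). The split over all genes depends on the scaling: of all calls, 57.8%, 67.2% and 44.5% were higher with TMM, 92.2%, 93.2% and 80.2% with library totals alone, and 66.1%, 71.7% and 71.3% with the GC trend of the next paragraph removed. The libraries did not overlap those of control for 6, 6 and 7 of the 8 genes, which is near or above the 62.9%, 54.1% and 65.5% of all tested genes. The median log2 fold change of the 8 was −0.13, −0.24 and −0.2, against 0.03, 0.02 and 0.01 over all tested genes. Between mutant lines, 1 of 8 passed the adjusted p for Splice del against C321fs (6.32% of all tested genes), 2 for A333fs against C321fs (15.7%) and 3 for A333fs against Splice del (11.9%). Called were 0, 1 and 0 of 8 (2.64%, 5.55% and 3%). The 3 comparisons with control share its libraries, and so their values are not independent of each other.

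The mutant libraries differed from control along the base composition of genes, and this touches several of the 8. Across the 14789 tested genes, the log2 fold change against control ran with the GC content of exons at Spearman's rho of −0.51, −0.55 and −0.67 for Splice del, C321fs and A333fs, a description across genes, which are not independent replicates. Exon GC was 39% for PIK3CA, 48.5% for IRS1, 49.3% for INSR, 51.7% for IGF1R, 51.9% for IGFBP5, 61.3% for IRS2, 62.7% for IGFBP4 and 67.6% for IGFBP2. Genes within 1 point of PIK3CA's GC had median log2 fold changes of 0.28, 0.29 and 0.32, those near IRS2 −0.25, −0.25 and −0.42, and those near IGFBP5 −0.1, −0.12 and −0.12.

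With this trend removed from each library, IGFBP5 was at −0.62, −0.96 and −0.32 (log2; adjusted p = 2e-09, 1.6e-11 and 1.2e-05) and IRS1 at 0.43, 0.46 and 0.32 (adjusted p = 4e-06, 3.9e-06 and 0.00021), so that both kept their direction and passed in all 3 lines. INSR in Splice del was at 0.39 (adjusted p = 0.0049). IGFBP4 was at −0.24, −0.31 and −0.57, each with an adjusted p of 4.8e-05 or lower, but A333fs was now 1.48-fold lower and no longer called. PIK3CA was at 0.09, 0.08 and 0.07 with adjusted p of 0.19, 0.28 and 0.35. IRS2 was at −0.41 in C321fs (adjusted p = 0.012) and −0.31 in A333fs (adjusted p = 0.051), and IGF1R at −0.13 (adjusted p = 0.024) and −0.14 (adjusted p = 0.014), so that neither passed. IGFBP2 in A333fs turned from −0.16 to 0.31 (adjusted p = 2.5e-05). What the trend comes from was not tested.

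**Figure D4:**
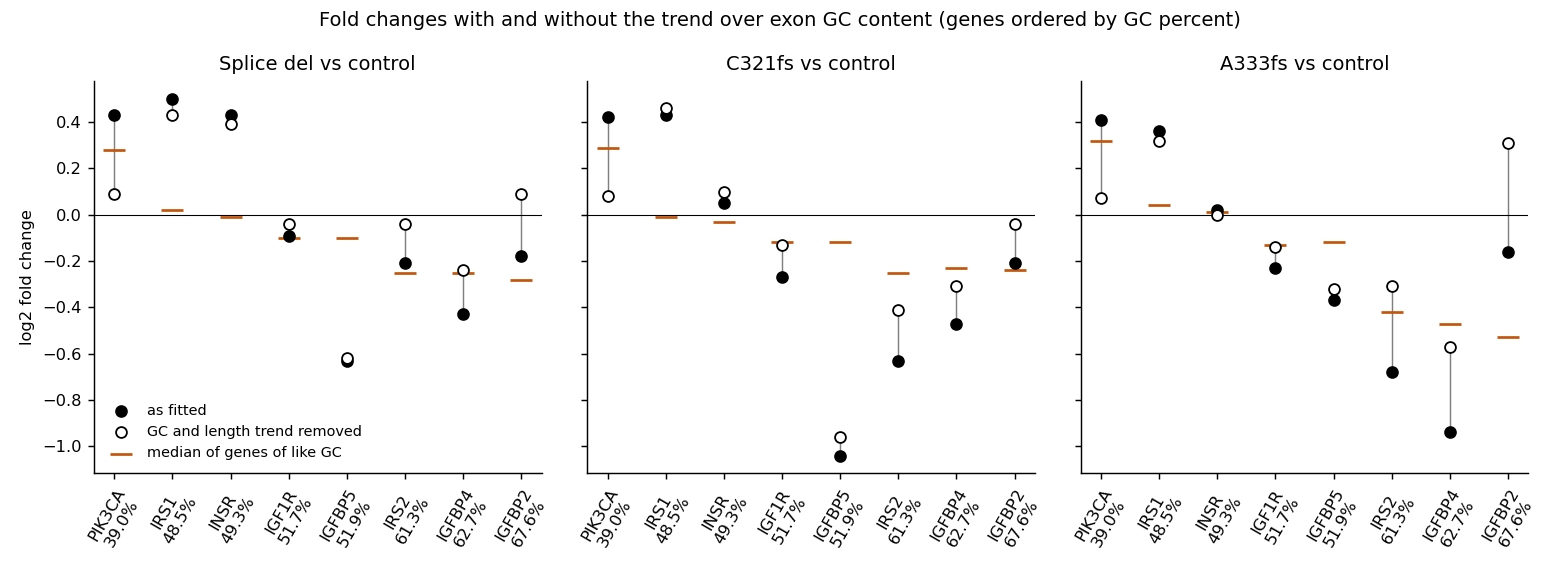
The log2 fold change of each gene against control (filled points), the same with each library's trend over exon GC content and length removed (open points), and the median of all tested genes within 1 point of its GC (orange lines), for the 3 mutant lines. The genes are ordered by GC from PIK3CA (39%) to IGFBP2 (67.6%); the points of IGFBP5 stay nearly in place, while those of PIK3CA come close to 0 and those of IGFBP2 move up.

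The genes with fold changes most like those of a called member were named by the smallest root mean square difference of the 3 log2 fold changes, over 8305 genes that differed among the lines. They were TAS1R3 (0.05) and CLCN7 (0.06) for IRS2, GFRA1 (0.05) and OSGIN1 (0.05) for IGFBP4, and IVL (0.06) and ANXA6 (0.1) for IGFBP5. GFRA1, for instance, was at −0.42, −0.49 and −1.03 in Splice del, C321fs and A333fs, and IVL at −0.65, −1.04 and −0.48.

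Around the 8 genes, 103 further genes of insulin and IGF signaling were listed by role, and 90 passed the filter. Called against control were 5 higher and 2 lower in Splice del (7.78% of the 90), 5 higher and 3 lower in C321fs (8.89%), and 11 higher and 8 lower in A333fs (21.1%). Of all tested genes, 10.7%, 6.88% and 12.3% were called in either direction in the same order. With the GC and length trend removed, the list had 7 higher and 0 lower in Splice del (7.78%) and 6 higher and 0 lower in C321fs (6.67%). In A333fs it then had 8 higher and 1 lower (10%). That fit called 6.99%, 4.42% and 5.4% of all tested genes in the same order. Without that removal, the median log2 fold changes of the 90 genes were −0.03, −0.02 and −0.07, against 0.03, 0.02 and 0.01 over all tested genes. The ligands INS, IGF1 and IGF2 were counted at most 1, 10 and 4 times in any library and were not tested. Also below the filter were the insulin receptor-related receptor INSRR, IGFBP1, IGFBP3, the IGFBP-cutting proteases PAPPA and PAPPA2, and IRS4, which was at 0 in every library. SESN3, RPS6KA3 and IGF2BP1 were too low as well.

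Of the tested receptors and extracellular regulators, IGF2R, which clears IGF2 and carries lysosomal enzymes, read 175.9 to 186.5 CPM in control and 97.9 to 127.6 CPM in C321fs, a 1.61-fold fall (adjusted p = 1.6e-05). Its Splice del libraries (146.3 to 159.7 CPM) lay between, and those of A333fs (147.8 to 178.7 CPM) overlapped control, with adjusted p of 0.017 and 0.091. Of 6 tested binding proteins and regulators, 2, 2 and 4 were called higher in Splice del, C321fs and A333fs, and none lower, where 6.21%, 4.63% and 5.46% of all tested genes were called higher. STC1, whose product inhibits PAPPA proteases, rose from 0.441 to 1.08 CPM in control to 1.6 to 2.09, 2.5 to 3.3 and 1.48 to 2.47 CPM (2.57-, 4.16- and 2.7-fold, adjusted p = 0.00072, 2.1e-05 and 0.00038). IGFBP7, a low-affinity IGF binder, rose 2.16-, 1.63- and 2.21-fold from 0.679 to 0.802 CPM in control (adjusted p = 0.00018, 0.0092 and 0.00011). HTRA1, a secreted protease, was called higher in A333fs (1.61-fold, adjusted p = 0.00062) and was 1.03-fold control in C321fs (adjusted p = 0.84); A333fs was 1.56-fold above C321fs (adjusted p = 0.0029). STC1 and IGFBP7 thus rose at low levels where IGFBP4 and IGFBP5 fell at high ones. STC2, listed with the same regulators, went the other way from STC1 and read 2351.8 CPM in control. It was 1.2-fold lower in Splice del (adjusted p = 0.00042), 1.37-fold in C321fs (adjusted p = 8.6e-06) and 1.1-fold in A333fs (adjusted p = 0.029). The rule for named genes leaves STC2 out, and it was added after its values were seen.

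Inside the cell, the adaptor GRB14, an inhibitor of the insulin receptor, was called higher in C321fs (1.62-fold, 5.87 to 6.97 CPM against 3.46 to 4.78 in control, adjusted p = 0.00042), the only one of 13 tested adaptors called against control. Of all tested genes, 10.7%, 6.88% and 12.3% were called in Splice del, C321fs and A333fs. Among 8 other PI3 kinase subunits, the regulatory subunit PIK3R3 was called higher in A333fs, at 79.5 to 82.1 CPM against 48.5 to 49.6 in control (1.64-fold, adjusted p = 9.1e-08). It rose 1.37-fold in Splice del (adjusted p = 7.8e-06), and in C321fs it overlapped control (adjusted p = 0.48). PIK3R2 was called lower in A333fs (1.59-fold, adjusted p = 5.5e-07) and fell 1.28- and 1.31-fold in Splice del and C321fs (adjusted p = 0.00022 and 0.00014).

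Of 16 phosphatases and inhibitors, 1, 0 and 4 were called in Splice del, C321fs and A333fs, to be read against 10.7%, 6.88% and 12.3% of all tested genes. SOCS2, a feedback inhibitor of cytokine and IGF signals, was at or under 3 counts per library in control and C321fs. It read 0.266 to 0.49 CPM in Splice del and 0.734 to 0.91 CPM in A333fs, and the means, 0.391 and 0.838 CPM, were at least 3.76-fold and 8.05-fold higher than the level of 3 counts per library in control (adjusted p = 0.00072 and 5e-06). INPP4B, a phosphatase of PI3 kinase lipids, rose from 45.7 to 54 CPM in control to 73.8 to 86.6 CPM in A333fs (1.62-fold, adjusted p = 4e-06). INPP4B also rose 1.33-fold in Splice del (adjusted p = 0.00059). INPPL1 fell in A333fs from 212.8 to 256.8 CPM to 144.7 to 156.4 CPM (1.54-fold, adjusted p = 1.3e-06).

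In the AKT arm, 0, 0 and 1 of 13 tested genes were called, beside 10.7%, 6.88% and 12.3% of all tested genes. The 1 was AKT1 in A333fs, at 295.6 to 299.7 CPM against 425.2 to 472.4 in control (1.51-fold lower, adjusted p = 3e-06). AKT1 also fell 1.29-fold in Splice del (adjusted p = 0.00025) and 1.18-fold in C321fs (adjusted p = 0.0084), where its libraries overlapped control. In the mTOR arm 4, 3 and 7 of 20 were called, again beside 10.7%, 6.88% and 12.3% of all tested genes. DEPTOR, an inhibitor of mTOR, was called higher in Splice del (60.1 to 65.7 CPM) and A333fs (56.8 to 60.4 CPM) against 36.3 to 39.1 CPM in control (1.67- and 1.55-fold, adjusted p = 1.9e-07 and 7.2e-07). In C321fs DEPTOR rose 1.18-fold (adjusted p = 0.0041). RPTOR, a subunit of the mTOR complex, was called lower in Splice del (1.62-fold, adjusted p = 5.7e-07) and C321fs (1.58-fold, adjusted p = 2.3e-06), and TSC2, which restrains mTOR, in C321fs (1.52-fold, adjusted p = 5.2e-06) and A333fs (1.54-fold, adjusted p = 1.6e-06). Below the fold limit, RPTOR also fell 1.45-fold in A333fs (adjusted p = 4.2e-06) and TSC2 1.32-fold in Splice del (adjusted p = 9.3e-05). In the RAS and ERK arm the kinase ARAF was called lower in A333fs (1.52-fold, adjusted p = 2.8e-06), the only one of 11, where 12.3% of all tested genes were called. ARAF also fell 1.36-fold in Splice del (adjusted p = 6.1e-05) and 1.41-fold in C321fs (adjusted p = 4.1e-05). The differences of A333fs from Splice del and C321fs did not pass for ARAF (adjusted p = 0.088 and 0.22). Of the proteins that bind IGF2 mRNA, IGF2BP2 was called higher in C321fs, at 18.1 to 20.8 CPM against 11 to 13.2 in control (1.6-fold, adjusted p = 1.8e-05), and was 1.85-fold lower in A333fs than in C321fs (adjusted p = 1.2e-06). With the GC trend removed, the calls against control of STC1, IGFBP7, SOCS2, PIK3R3, GRB14, HTRA1 and IGF2BP2 remained, and those of IGF2R, PIK3R2, INPPL1, INPP4B, AKT1, DEPTOR, RPTOR, TSC2 and ARAF were lost. All of these lost calls still passed the adjusted p, at smaller changes. IGF2R in C321fs (log2 −0.56), DEPTOR in Splice del (0.58), RPTOR in Splice del (−0.54) and ARAF in A333fs (−0.51) lay just under the fold limit. PIK3R2, AKT1, INPPL1 and TSC2 in A333fs were further from it, at −0.26, −0.26, −0.28 and −0.28, and the other lost calls were 0.42 to 0.44 in size.

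**Figure D5:**
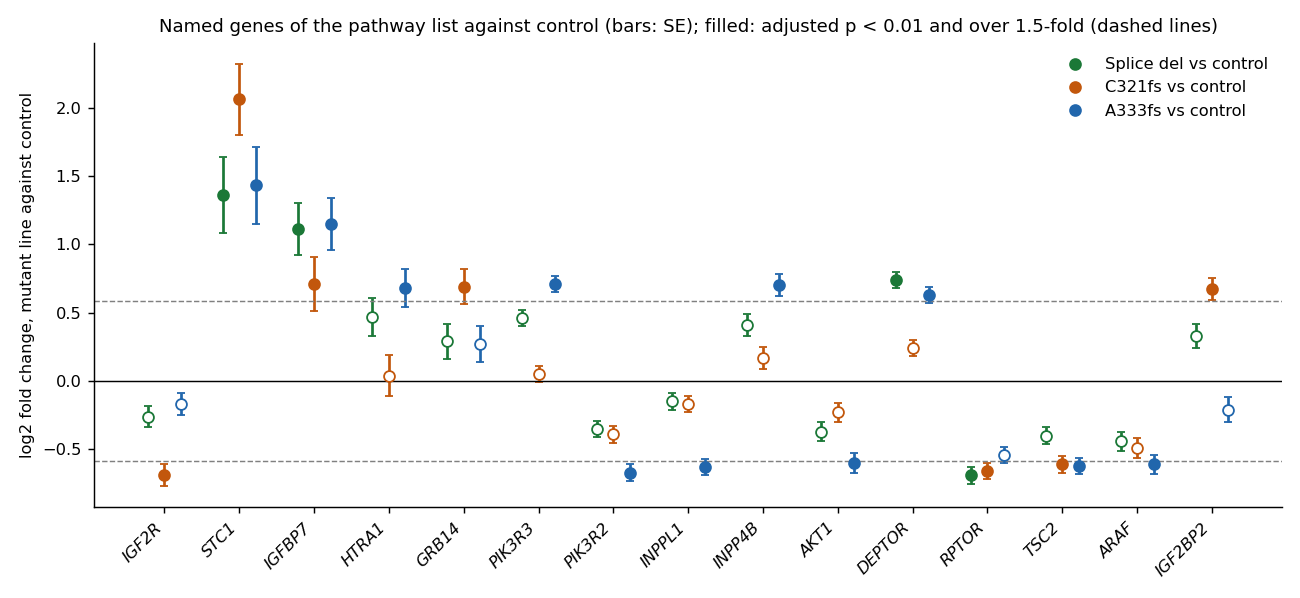
The log2 fold change against control, with its SE (bars), of 15 named genes of the pathway list in the 3 mutant lines; SOCS2, near 0 counts in control, is left out. Filled points passed an adjusted p of 0.01 and a fold change of 1.5 (dashed lines): STC1 and IGFBP7 are filled in all 3 lines, and PIK3R2, INPPL1, AKT1 and ARAF in A333fs alone. An open point can still have passed the adjusted p, and PIK3R2, AKT1 and ARAF fell at that limit in all 3 lines.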

How the data were processed

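RNA was extracted from 12 T47D samples, and libraries (NEBNext Ultra II) were read as 150-base pairs. Per the labels and the study's methods the authors used Trimmomatic for trimming and hg38 for alignment, and deposited raw counts per gene from featureCounts 1.6.4, which counted fragments without strand. The aligner is not settled: the file header names STAR and the labels HISAT2. The growth medium, which in the labels contains insulin, also differs between the sources. The 15 ChIP-seq samples were not analysed here.

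From the deposited counts, filterByExpr, TMM scaling and quasi-likelihood tests were run in edgeR 4.0.16 (R 4.3.3) in 1 model of 4 lines and 12 libraries, with Benjamini-Hochberg adjustment over 14789 genes. Called means adjusted p below 0.01 and fold change over 1.5. The file's exon lengths gave levels per kilobase, and exon GC came from hg38. The fits were tested on simulated data. The precision of a gene in 1 library is set by its counts.

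The members, lists and rules were chosen with earlier results of these data known. Named were all members, GATA3, up to 3 called pathway genes per role with the smallest F-test p, and the 2 genes most like each called member. Alternatives included DESeq2 1.42.0, other scalings and filters, a replicate block, GC and length offsets (loess per library, fitted outside the lists) and leaving out each library. The values of 1 listed gene are not reported here.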

Additional observations from a re-analysis of the deposited data

Results flagged for a closer look

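The following mutant lines differed from each other in the test of the difference itself (edgeR, adjusted p below 0.01 and fold change over 1.5). The log2 difference of A333fs from C321fs was 0.67 for IGFBP5, 0.64 for HTRA1, 0.66 for PIK3R3 and −0.89 for IGF2BP2. It was −0.84 (adjusted p = 0.00015) for SH2B2, an adaptor of receptor tyrosine kinases that the rule for named genes leaves out and that was added after its values were seen. With the GC and length trend removed, PIK3R3 was at 0.58 and SH2B2 at −0.52, below the fold limit. For SOCS2, which was at or under 3 counts in every C321fs library, the fitted log2 differences from C321fs were 5.04 in A333fs and 3.96 in Splice del, values that depend on the prior count; against the level of 3 counts per library, the mean of A333fs was at least 8.06-fold and that of Splice del at least 3.76-fold higher.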

How the results depend on the processing

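Calls rest on a fold limit that several of the 8 genes lie near, and IRS2 and INSR rest on 101 to 304 counts per library. The median of all genes moved to 0.22, 0.19 and 0.16 (Splice del, C321fs and A333fs against control, log2) with library totals alone and to 0.12, 0.11 and 0.12 with upper-quartile scaling, and values read against those shifts move less. The causes of the changes below were not tested, beyond what an alternative itself does (a lower or no limit passes more genes).

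Numbers in this paragraph count the 8 genes past the limits, in the order Splice del, C321fs and A333fs against control, then Splice del against C321fs, A333fs against C321fs and A333fs against Splice del. The reported counts were 1, 2, 2, 0, 1 and 0. With no minimum fold change they were 5, 6, 6, 1, 2 and 3, and with a test against a fold change of 1.5 they were 0, 1, 1, 0, 0 and 0. Library totals alone gave 3 for Splice del (all higher, where the reported call was lower) and 1 for A333fs, upper-quartile scaling 1 for C321fs, 1 for A333fs and 1 for Splice del, where IRS1 (0.59, higher) took the place of IGFBP5 (−0.54), and removal of the GC and length trend 1 for C321fs and 0 for A333fs. Leaving out 1 library gave 1 to 2 in each comparison with control, 2 in Splice del without control replicate 3 (IRS1 added) and 1 in C321fs and A333fs without control replicate 1 (IRS2 lost), which A333fs also lost without its replicate 2, and 5 to 7 genes differing among the lines.

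For the pathway list the reported counts were 7, 8, 19, 1, 5 and 0. With no minimum fold change they were 42, 43, 52, 4, 17 and 8, and with the test against 1.5 they were 0, 2, 1, 0, 1 and 0. Library totals alone gave 13 in Splice del (13 higher and 0 lower) and 1 for A333fs against Splice del. Removal of the GC and length trend gave 9 in A333fs (8 higher and 1 lower, from 11 and 8), 3 for A333fs against C321fs and 1 for A333fs against Splice del. RLE scaling, upper-quartile scaling and an adjusted p of 0.05 also gave 1 there. For Splice del against C321fs the count was 2 with no filter or at 0.05, and 0 with at least 10 counts in every library or only the 2 lines in the fit. Leaving out 1 library gave 7 to 9, 6 to 10, 14 to 25, 1, 4 to 6 and 0 to 1, the last being 1 without C321fs replicate 1 or A333fs replicate 1. Over all genes, calls in A333fs were 808 higher and 1007 lower, and 569 and 229 with the trend removed.

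Of 1152 alternative values of the 48 log2 fold changes, 38 had another sign than the reported value, nearly all near 0 and below the test's limit. The exception was IGFBP2 in A333fs at 0.31 with the trend removed, which passed the adjusted p. That fit also gave IGFBP2 0.09 in Splice del, IGF1R −0.01 and IRS2 0.1 for A333fs against C321fs, and IRS1 −0.03 for Splice del against C321fs. In Splice del against control, IGF1R was 0 with upper-quartile scaling and 0.1 with library totals, which gave IGFBP2 0.01, and −0.02 for A333fs against Splice del. For A333fs against C321fs, PIK3CA was 0.01 with RLE, upper-quartile scaling and DESeq2 and 0.02 with no filter, which gave INSR 0. Leaving out 1 library gave, for A333fs against C321fs, −0.02 to 0.09 (IGF1R), −0.14 to 0.09 (INSR), −0.12 to 0.06 (IRS2), −0.05 to 0.21 (IGFBP2) and −0.11 to 0.08 (PIK3CA). For Splice del against C321fs it gave −0.07 to 0.19 (IGFBP2), −0.02 to 0.15 (IGFBP4) and −0.08 to 0.08 (PIK3CA), for A333fs against Splice del −0.11 to 0.06 (PIK3CA), and for INSR against control −0.04 to 0.18 in C321fs and −0.09 to 0.16 in A333fs.

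Same-numbered samples did not deviate together (correlations of −0.123 to 0.165 over 18 pairs of libraries), so no pairing by replicate number was seen. With 3 libraries per line, this check cannot exclude a pairing, and the labels do not give one. With the replicate block, the 8 genes gave the counts reported in all 6 comparisons, 6 rather than 7 differed among the lines, and the pathway list gave 7, 7, 18, 1, 5 and 0. A sample correlated best with its own number in another line in 10 of 36 cases.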
